A study of Mus musculus with 8 samples.

Results

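The 10 genes described here encode secreted matricellular proteins: thrombospondins (Thbs1, Thbs2, Thbs3 and Thbs4), CCN proteins (Ccn1, Ccn2, Ccn3, Ccn4 and Ccn5) and tenascin C (Tnc). Every probe set annotated to exactly 1 of these genes was taken, which gave 19 of the 34945 probe sets of the array that carry a single gene symbol, and 10 of 18193 genes. A further probe set, annotated to Thbs1 together with another gene, was left out. Total RNA of the ductus arteriosus and of the matching stretch of aorta was compared on 4 ductus and 4 aorta arrays, from mouse fetuses at gestation day 19. The ductus is the fetal vessel between the pulmonary artery and the descending aorta, and it closes after birth. The mice were wild type, untreated and of the strain labelled CD88, and each array held the pooled vessels of up to 10 pups of 1 pregnant female, so that pups cannot be told apart and the replicates are pools. The replicates are labelled biological. A whole vessel segment holds several cell types, so fewer cells of a type and less RNA per cell cannot be told apart. Values are deposited log2 signals after robust multi-array averaging (RMA), a background correction, quantile normalization and summary of each probe set.

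Matricellular proteins are laid down in the extracellular matrix without building its fibres. They bind integrins, proteoglycans, growth factors and proteases, and so alter adhesion, migration and growth factor activity, mostly during development, stretch and repair. Thbs1 and Thbs2 form trimers, inhibit angiogenesis and bind the receptors CD36 and CD47, and Thbs1 can activate latent TGF-beta, whereas Thbs3 and Thbs4 form pentamers. Ccn1 and Ccn2 are rapidly induced by stretch, serum and TGF-beta in vascular cells and are much used readouts of the coactivators YAP and TAZ, and Ccn5 lacks the C-terminal module of the other family members and restrains smooth muscle growth and migration. In the ductus, remodelling of the matrix and formation of intimal cushions precede closure after birth.

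The stretch of 250 bases before the start site was read for members with an entry in the RefSeq promoter table (build GRCm38.p6, the C57BL/6J reference and not the strain labelled here), which held 5 of the 10 genes. It is shown for Ccn1 (chr3:145649986-145650235, minus strand) and Thbs4 (chr13:92794819-92795068, minus strand), the 2 members with an entry that were higher in the ductus, and for Thbs2 (chr17:14694263-14694512, minus strand), for which probe sets went different ways. Capitals mark matches to GGAATG (the core of TEAD sites, through which YAP and TAZ act), TGANTCA (AP-1), TGACG (a single arm of the cyclic AMP response element) and the CArG box of serum response factor, each on both strands, and to TATAAA on the gene's strand.
Ccn1: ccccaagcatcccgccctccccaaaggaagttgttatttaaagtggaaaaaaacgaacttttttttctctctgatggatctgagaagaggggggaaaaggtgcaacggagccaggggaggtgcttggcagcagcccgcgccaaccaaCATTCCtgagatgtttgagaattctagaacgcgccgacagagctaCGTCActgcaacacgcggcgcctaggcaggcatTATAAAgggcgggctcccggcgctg
Thbs4: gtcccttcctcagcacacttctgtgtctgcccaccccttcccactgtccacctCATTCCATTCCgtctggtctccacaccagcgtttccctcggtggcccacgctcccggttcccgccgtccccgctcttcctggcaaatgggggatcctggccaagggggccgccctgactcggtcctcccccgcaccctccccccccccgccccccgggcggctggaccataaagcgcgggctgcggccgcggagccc
Thbs2: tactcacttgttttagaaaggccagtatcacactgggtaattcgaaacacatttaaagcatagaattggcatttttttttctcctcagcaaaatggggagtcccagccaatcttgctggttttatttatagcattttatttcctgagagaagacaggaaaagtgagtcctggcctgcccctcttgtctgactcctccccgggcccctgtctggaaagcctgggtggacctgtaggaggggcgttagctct
The Ccn1 window held a TEAD core match (CATTCC) from -103 to -98 relative to the start site, a cyclic AMP element arm from -58 to -54 and TATAAA from -25 to -20. The Thbs4 window held 2 TEAD core matches that share a base, from -197 to -192 and from -192 to -187. No match to these letters stood in the Thbs2 or Thbs3 window, and both Tnc windows held TATAAA alone. Over all 32851 windows of this length, 12.6% held the TEAD core, 17.8% the cyclic AMP element arm, 7.59% TATAAA, 6.75% the AP-1 letters and 1.47% a CArG box. These matches are descriptions of the letters and not evidence of binding.

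Of the 10 genes, 4 were higher in the ductus and 0 lower: Ccn5 (5.13-fold), Thbs1 (3.54-fold), Thbs4 (1.78-fold) and Ccn1 (1.66-fold). The test was limma's, ductus minus aorta, with a call at an adjusted p under 0.05 over all 18193 genes, each gene given by its probe set with the highest mean. Of all genes tested, 3.86% were called, 1.80% higher and 2.06% lower in the ductus. The other 6 members did not pass, 3 of them at an unadjusted p under 0.05 (Ccn2, Ccn4 and Tnc). The median log2 difference was 0.48 over the 10 members and -0.03 over all genes. In 6 of the 10 genes (Thbs1, Thbs4, Ccn1, Ccn2, Ccn4 and Ccn5) every ductus value lay above every aorta value, as against 11.3% of all genes without overlap in either direction.

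**Figure D1:**
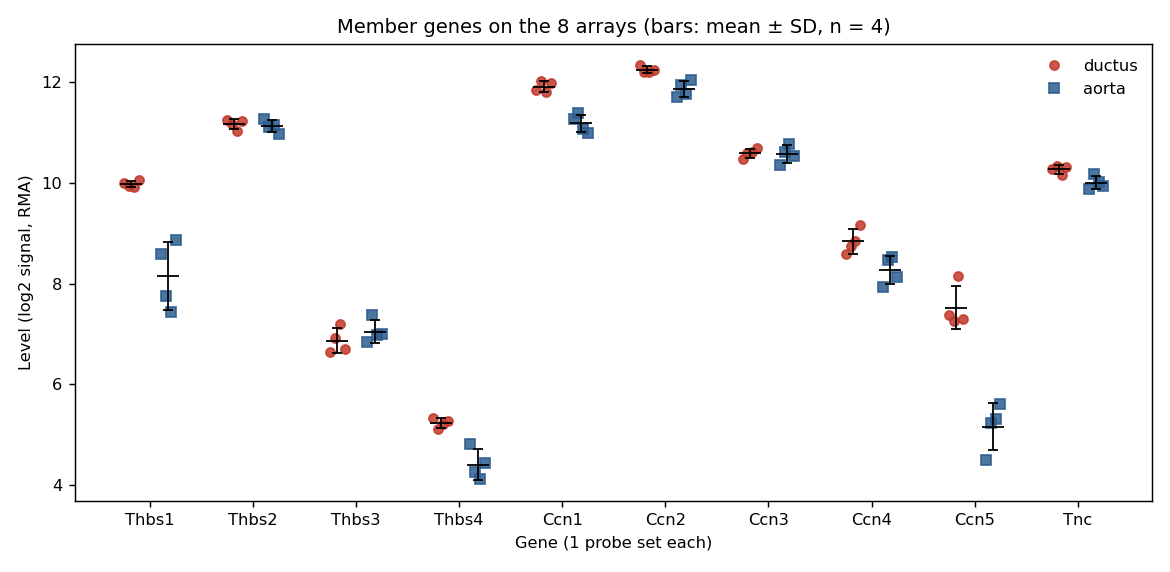
Level of each member gene (log2 signal, vertical axis) on the 4 ductus arrays (red circles, left of each pair) and the 4 aorta arrays (blue squares), with mean ± SD as black bars. Ccn5 and Thbs1 show the widest gaps between the tissues, and Thbs1 spreads far more among the aorta arrays (SD 0.67) than among the ductus arrays (SD 0.065). Levels of different genes come from different probes and are not comparable.

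**Figure D2:**
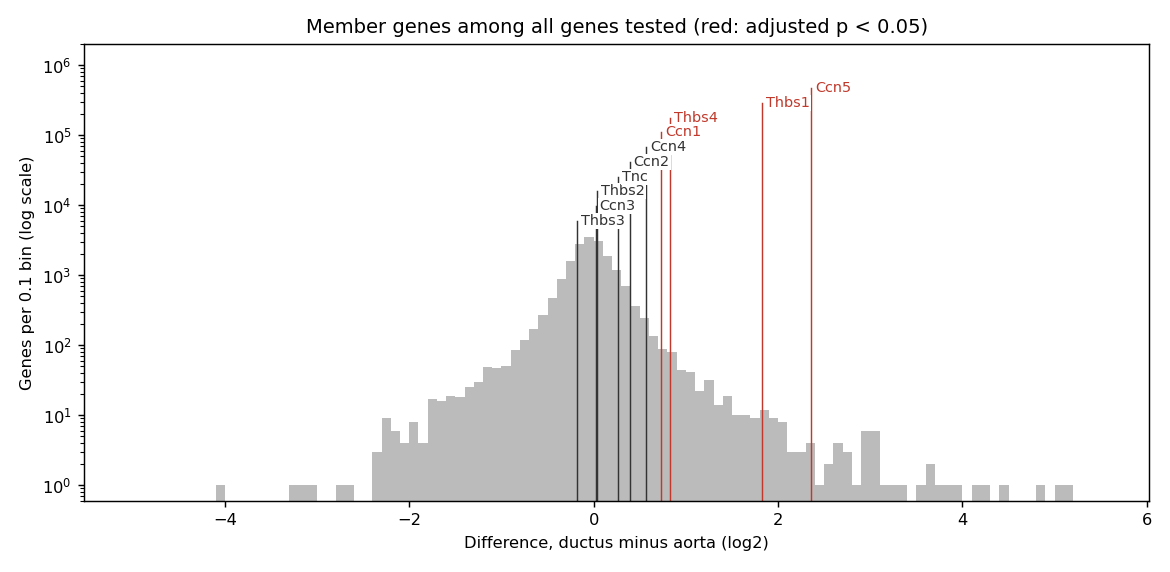
Histogram of the log2 difference, ductus minus aorta, over all 18193 genes (grey, log axis of gene counts), with a vertical line at each member, red where the adjusted p was under 0.05. The lines of Thbs1 (1.82) and Ccn5 (2.36) lie in the right tail, while Thbs2, Ccn3 and Thbs3 lie in the central peak; the heights of the lines only separate the names.

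Thrombospondins differed among themselves. Thbs1 was at 9.99, 9.94, 9.91 and 10.06 (log2 levels) on the ductus arrays 1 to 4, against 8.58, 7.74, 7.43 and 8.86 on the aorta arrays. The ductus values lay close together (SD 0.065), while the aorta arrays split into a higher pair (replicates 4 and 1) and a lower pair (replicates 2 and 3), all below the ductus. The difference was log2 1.82 ± 0.28 (SE; adjusted p = 0.00709), which ranked 112th of all genes by absolute size, and it was called under all 22 alternatives of the processing, with adjusted p between 0.00155 and 0.0373. The second Thbs1 probe set, 1450377_at, was at 4.07, 4.71, 3.91 and 4.48 in the ductus and at 2.25, 2.78, 3.00 and 3.38 in the aorta. It was higher in the ductus by log2 1.44 ± 0.25 (adjusted p = 0.0136 over all probe sets, and 0.0514 without ductus replicate 4). Its aorta mean, 2.85, lay near the first quartiles of the arrays (2.74 to 2.86), so this fold may be compressed.

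Over the aorta arrays, the Thbs1 probe set with the highest mean, 1460302_at, fell in the order of replicates 4, 1, 2 and 3. The second, 1450377_at, had another order, replicates 4, 3, 2 and 1, with replicate 1 lowest (2.25). The mean of 8 thymocyte markers had the order of 1460302_at, at 6.56, 4.77, 3.87 and 3.46. Several other lists were also higher on replicates 4 and 1 than on 2 and 3. These were cardiac muscle (8 markers, 7.40 and 7.32 against 5.92 and 6.09) and mesothelium (8.66 and 9.12 against 8.31 and 7.72). The erythroid (8.36 and 8.17 against 7.38 and 7.53), skeletal muscle and lung epithelium means did the same. The smooth muscle, endothelial, fibroblast, cartilage, tendon, platelet, macrophage, adipocyte and nerve means did not. An order of 4 arrays can be shared by chance, and the lists were compared without a test. The thymocyte means in the ductus, 3.87 to 7.29, overlapped those of the aorta, 3.46 to 6.56, and 0 of the 8 markers were called, although all 8 had a higher mean in the ductus (median log2 difference 1.15). With the thymocyte mean as a covariate, the Thbs1 difference was log2 1.63 (adjusted p = 0.0112). The part of the cardiac muscle, mesothelial, erythroid and lung epithelium markers was not tested. Platelets store much Thbs1 protein, and the mean of 7 platelet and megakaryocyte markers ran from 5.36 to 6.38 in the ductus and from 5.38 to 5.93 in the aorta, with 0 of 7 called.

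Thbs4, a pentameric thrombospondin of tendon, muscle and heart, was at 5.34, 5.12, 5.22 and 5.28 in the ductus, against 4.82, 4.25, 4.12 and 4.44 in the aorta. All ductus values were above all aorta values, with the highest aorta value on replicate 1. The aorta mean, 4.41, lay at the array medians (4.36 to 4.42). The difference was log2 0.83 ± 0.15 (adjusted p = 0.0166), and it did not pass without ductus replicate 1 (adjusted p = 0.0567), ductus replicate 4 (0.0553) or aorta replicate 2 (0.059), or when the skeletal muscle marker mean entered the fit (log2 0.82, adjusted p = 0.0732). Of 5 tendon markers, 3 were higher in the ductus: Mkx (log2 3.05, adjusted p = 0.000105), Tnmd (log2 2.50, adjusted p = 0.00272) and Scx (log2 1.18, adjusted p = 0.0438). The others were not called: Fmod averaged 10.20 in ductus pools and 10.48 in aorta pools (log2 -0.29, adjusted p = 0.684), and Kera 2.90 in ductus pools and 2.25 in aorta pools (adjusted p = 0.0801). The mean of the 5 ran from 6.30 to 6.77 in the ductus and from 5.07 to 5.28 in the aorta. Their part in the Thbs4 difference was not tested. The mean of 10 skeletal muscle markers was 3.99 to 6.39 in the ductus, the highest on replicate 3, and 3.64 to 4.13 in the aorta, with 0 called. That of 8 cardiac muscle markers was 6.01 to 7.11 in the ductus and 5.92 to 7.40 in the aorta. Of these 8, 0 were called higher and 1 lower (Tnnt2, log2 -1.28, adjusted p = 0.035).

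Thbs2 gave readings that depended on the probe set. The probe set with the highest mean, 1450663_at, was at 11.24, 11.16, 11.02 and 11.23 in the ductus, against 11.27, 11.11, 11.15 and 10.97 in the aorta. The tissues overlapped, and the difference was log2 0.04 (95% interval -0.20 to 0.28, adjusted p = 0.901). A second probe set designed to the same transcript record, 1422571_at, was at 8.02, 7.43, 8.01 and 7.64 in the ductus and at 8.65, 8.87, 8.38 and 8.51 in the aorta. Here every ductus value was below every aorta value, with a difference of log2 -0.83 ± 0.17 (adjusted p = 0.0294 over all probe sets). That call did not survive the removal of ductus replicate 2 or 4 or of aorta replicate 1, 2 or 4 (adjusted p of 0.0563 to 0.0934). The third, 1447862_x_at, whose suffix marks possible cross-hybridisation, ran from 6.50 to 6.82 in the ductus and from 6.55 to 6.72 in the aorta (log2 0.04, adjusted p = 0.917). As the mean over its 3 probe sets, Thbs2 differed by log2 -0.25 (adjusted p = 0.23), so no single direction holds for this gene.

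Thbs3, whose protein resembles Thbs4 in structure, was at 6.65, 6.93, 7.20 and 6.71 in the ductus, against 6.84, 7.37, 6.99 and 7.00 in the aorta. The values overlapped and the difference was log2 -0.18 (95% interval -0.54 to 0.18, adjusted p = 0.662), the only negative one among the 10 genes.

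**Figure D3:**
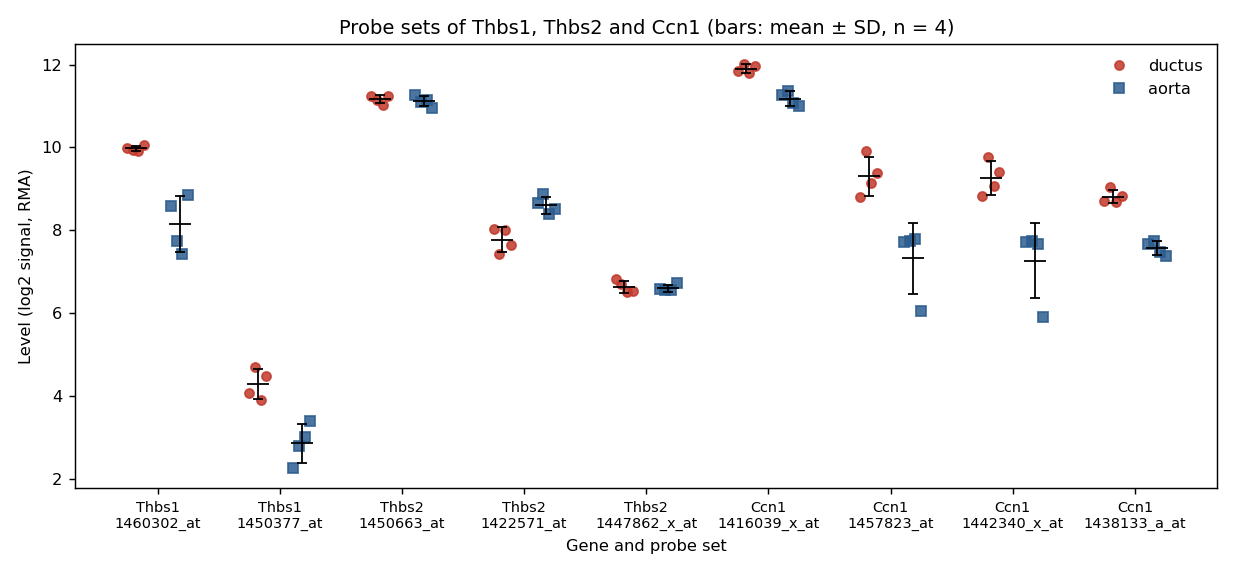
Levels (log2 signal) of the probe sets of Thbs1, Thbs2 and Ccn1 on the 4 ductus arrays (red circles, left) and 4 aorta arrays (blue squares, right), with mean ± SD. Both Thbs1 and all 4 Ccn1 probe sets were higher in the ductus, whereas of 3 Thbs2 probe sets only 1422571_at separated the tissues, with the ductus lower. Aorta replicate 4 stands apart for 1457823_at (6.04) and 1442340_x_at (5.91).

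Among the CCN genes, Ccn5 and Ccn1 were called. Ccn5 was at 7.38, 7.25, 8.15 and 7.30 in the ductus, against 4.50, 5.23, 5.32 and 5.61 in the aorta. The gap between the lowest ductus and the highest aorta array was wider than the range within either tissue, and ductus replicate 3 stood highest. The difference was log2 2.36 ± 0.26 (adjusted p = 0.00122), ranking 48th of all genes by absolute size, and it was called under all 22 alternatives (log2 2.01 to 2.51, adjusted p up to 0.00726). Ductus replicate 3 was also the array with the highest skeletal muscle (6.39), smooth muscle (10.38), platelet and megakaryocyte (6.38) and lung epithelium (6.26) marker means. Without that array Ccn5 still passed, by log2 2.15 (adjusted p = 0.00232). The skeletal muscle mean as a covariate left log2 2.01 (adjusted p = 0.00496).

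Ccn5 is made by vascular smooth muscle, and of 10 smooth muscle markers, 5 (Actg2, Des, Myh11, Mylk and Cnn1) were called higher in the ductus and 0 lower. Their mean was 9.84 to 10.38 in the ductus and 8.72 to 9.34 in the aorta. Acta2, the actin that defines vascular smooth muscle, averaged 12.35 in ductus pools and 12.14 in aorta pools (log2 0.21, adjusted p = 0.464), so both tissues carried it. The part of smooth muscle content in the Ccn5 difference was not tested.

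Ccn1, an immediate early gene whose protein binds integrins, was at 11.84, 12.01, 11.80 and 11.98 in the ductus, against 11.27, 11.38, 11.07 and 10.99 in the aorta for the probe set with the highest mean, 1416039_x_at. The tissues did not overlap, and the difference was log2 0.73 ± 0.12 (adjusted p = 0.00862). The suffix of 1416039_x_at, shared by 1442340_x_at, marks possible cross-hybridisation. The other 3 probe sets gave larger differences. Probe set 1438133_a_at was at 8.71, 9.04, 8.67 and 8.84 in the ductus and at 7.66, 7.74, 7.48 and 7.37 in the aorta, a difference of log2 1.25 ± 0.13 (2.38-fold, adjusted p = 0.00071 over all probe sets), and it was called under all 21 alternatives. Probe sets 1457823_at and 1442340_x_at were designed to the same transcript record and gave log2 1.98 ± 0.39 (adjusted p = 0.0262) and 2.00 ± 0.40 (adjusted p = 0.027). The first of them was at 8.80, 9.91, 9.13 and 9.38 in the ductus and at 7.73, 7.75, 7.78 and 6.04 in the aorta.

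Without aorta replicate 4, which was low for these last probe sets, their differences were log2 1.55 for both, and they were still called. Both calls were lost without ductus replicate 2, 3 or 4, with the skeletal muscle covariate and with a block for replicate number (adjusted p up to 0.0839). The block also ended the probe set call of 1416039_x_at (adjusted p = 0.0553), while the call of Ccn1 among genes was kept. As the mean over its 4 probe sets, Ccn1 differed by log2 1.49 (adjusted p = 0.00761), so the direction did not depend on the probe set while the size did, between 1.66-fold and 4.01-fold.

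Ccn2, the connective tissue growth factor, was at 12.34, 12.19, 12.21 and 12.24 in the ductus, against 11.69, 11.93, 11.75 and 12.05 in the aorta. All ductus values were above all aorta values, by little, and the log2 difference of 0.39 ± 0.11 did not pass (1.31-fold, 95% interval 0.14 to 0.64 before adjustment, adjusted p = 0.0973). It passed with a trended and robust variance prior (adjusted p = 0.0132). Ccn4, a Wnt-induced secreted protein, was at 8.59, 8.74, 8.84 and 9.17 in the ductus, against 7.94, 8.47, 8.52 and 8.13 in the aorta. These values did not overlap either, and the log2 difference of 0.57 ± 0.17 did not pass (adjusted p = 0.117), except with the thymocyte markers as a covariate (log2 0.71, adjusted p = 0.0279). The second Ccn4 probe set, 1448593_at, overlapped between the tissues (log2 0.42 ± 0.25, adjusted p = 0.499).

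Ccn3, also known as Nov, was at 10.47, 10.58, 10.61 and 10.68 in the ductus, against 10.35, 10.62, 10.77 and 10.53 in the aorta. The tissues overlapped, with a log2 difference of 0.02 (95% interval -0.24 to 0.28, adjusted p = 0.957). These values came from 1426852_x_at, whose suffix also marks possible cross-hybridisation. The second Ccn3 probe set, 1426851_a_at, gave log2 0.07 (95% interval -0.19 to 0.34, adjusted p = 0.834). A difference of the size seen for Ccn5 or Thbs1 lies outside these intervals.

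Tnc, the tenascin of remodelling matrix and tendon, was at 10.27, 10.34, 10.14 and 10.31 in the ductus, against 9.88, 10.17, 10.01 and 9.93 in the aorta. A single aorta array, replicate 2, reached into the ductus range, just above the lowest ductus array. The log2 difference of 0.27 ± 0.11 did not pass (1.20-fold, 95% interval 0.03 to 0.50 before adjustment, adjusted p = 0.245), nor did that of 1456344_at (log2 0.18 ± 0.15, adjusted p = 0.647). No alternative brought either probe set past the threshold. Its relative Tnn, which is no member, averaged 6.23 ± 0.26 in the ductus and 4.46 ± 0.20 in the aorta (SD, n = 4 each), 3.40-fold higher in the ductus (adjusted p = 0.000313).

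**Figure D4:**
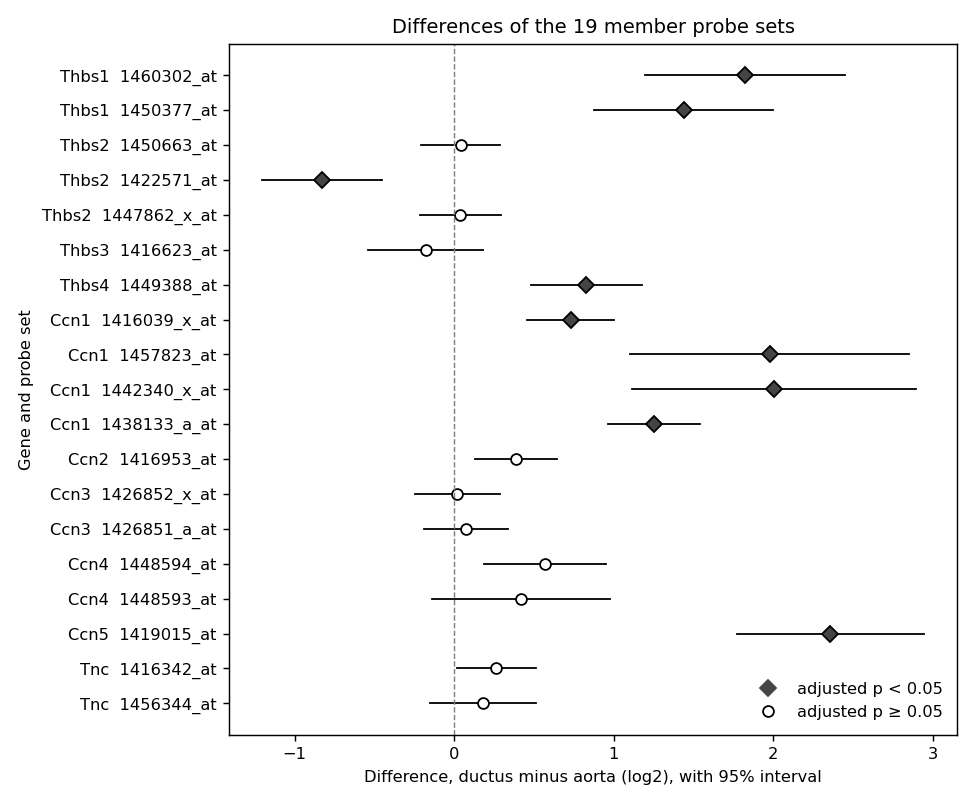
Log2 difference, ductus minus aorta, of each of the 19 member probe sets (horizontal axis) with its 95% interval before adjustment; filled diamonds have an adjusted p under 0.05 over all probe sets. Points right of 0 are higher in the ductus; 8 probe sets are called on that side and 1, of Thbs2, on the other.

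Over the 19 probe sets, 8 were called higher and 1 lower in the ductus, against 2.86% called among all 34945 probe sets (1.39% higher and 1.47% lower). In 11 of the 19 the tissues did not overlap, as in 9.98% of all probe sets. Probe sets of 1 gene read the same RNA and are not replicates: the 8 came from 4 genes, 4 of them from Ccn1 and 2 from Thbs1. In 17 of 19 the difference was above 0.

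Of 13 genes for receptors and partners of thrombospondins, 0 were called (4 at an unadjusted p under 0.05), and the smallest p was that of the integrin subunit Itgav (log2 0.26 ± 0.09, adjusted p = 0.204), with a positive difference in 4 of 5 probe sets. Of 19 genes for receptors and partners of CCN proteins and tenascin C, 1 was higher and 1 lower in the ductus (10.5%, beside 3.86% of all genes). Fn1, fibronectin, was 1.44-fold higher (11.77 ± 0.10 in ductus pools against 11.25 ± 0.07 in aorta pools, adjusted p = 0.0193). Tlr4, a pattern recognition receptor that tenascin C can activate, was lower, with means of 6.40 ± 0.15 in the ductus and 7.13 ± 0.17 in the aorta (log2 -0.73, adjusted p = 0.0107). Tlr4 did not pass as the mean over its probe sets (adjusted p = 0.115). Fn1 did not pass without ductus replicate 1 (adjusted p = 0.061) or 3 (0.0587), or with the skeletal muscle covariate (0.106). With the replicate block neither Fn1 (adjusted p = 0.12) nor Tlr4 (0.0684) passed. As the mean over its probe sets, Fn1 differed by log2 0.90 (adjusted p = 0.00117), so its size depended on the probe set.

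Other matricellular genes went both ways: of 22 measured, 2 were higher and 2 lower in the ductus. Beside Tnn, the TGF-beta-induced Tgfbi was 2.71-fold higher (10.45 ± 0.33 in ductus pools against 9.01 ± 0.34 in aorta pools, adjusted p = 0.00447). Spon1, F-spondin, which carries thrombospondin repeats, was lower, averaging 11.49 ± 0.11 in the ductus and 12.33 ± 0.04 in the aorta (log2 -0.84, adjusted p = 0.00151), as was the proteoglycan Spock2 (log2 -1.03, adjusted p = 0.0392). Without ductus replicate 1, 2 or 4 or aorta replicate 1, 2 or 4, Spock2 did not pass (adjusted p of 0.0704 to 0.116). The median log2 difference of this list was -0.10.

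In the TGF-beta list of 22 measured genes, 2 were higher and 2 lower in the ductus, with a median of -0.03. Latent TGF-beta binding proteins split: Ltbp1 (log2 0.47 ± 0.09, adjusted p = 0.0247) and Ltbp2 (log2 0.79 ± 0.17, adjusted p = 0.0299) were higher and Ltbp4 was lower (log2 -0.68 ± 0.16, adjusted p = 0.0464). The receptor Tgfbr2 was lower too (log2 -0.57 ± 0.11, adjusted p = 0.0223). These calls lay near the threshold. Leaving out 1 of the 8 arrays in turn ended those of Ltbp1 and Ltbp2 in 7 cases each. It ended that of Ltbp4 in 6 and that of Tgfbr2 in 4, with adjusted p up to 0.13. The Ltbp1 difference stayed at log2 0.44 to 0.51 in these fits. As the mean over its probe sets, Ltbp1 differed by log2 0.96 (adjusted p = 0.00591). None of these 4 genes passed once the mean of the skeletal muscle list entered the fit (adjusted p of 0.0608 to 0.135).

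Of 28 genes of the YAP and TAZ pathway, 2 were higher and 0 lower, with a median of 0.01. F3, tissue factor, averaged 6.87 ± 0.14 in ductus pools and 4.07 ± 0.26 in aorta pools, a 6.95-fold difference (adjusted p = 1.3e-05), and the DNA-binding partner Tead1 1.66-fold higher (adjusted p = 0.00657). Of 27 serum response factor and immediate early genes, 3 were higher and 0 lower, with a median of 0.01. These were the nuclear receptor genes Nr4a3 (log2 1.81, adjusted p = 0.000467) and Nr4a2 (log2 1.07, adjusted p = 0.00709), and Egr1 (log2 0.40, adjusted p = 0.0477). The Egr1 call was lost on leaving out any 1 of the 8 arrays (adjusted p of 0.0722 to 0.128). Nr4a2 has 6 probe sets, 4 of them with a positive difference, and their mean was not called (adjusted p = 0.276). For Nr4a3, 2 of 3 probe sets had a positive difference, and their mean differed by log2 0.57 (adjusted p = 0.00891). The shares called in the 6 lists were 0%, 10.5%, 18.2%, 18.2%, 7.14% and 11.1% in the order given, beside 3.86% of all genes. The share over all genes includes genes of low signal, to which the list genes were not matched in level. The lists were also chosen with earlier results of these data known, so these shares are descriptions only. In the same order, 4, 7, 9, 11, 13 and 8 genes of the lists had an unadjusted p under 0.05, as had 2935 of all 18193 genes. Leaving out ductus replicate 2 or ductus replicate 4 brought the 15 calls over all lists to 9.

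**Figure D5:**
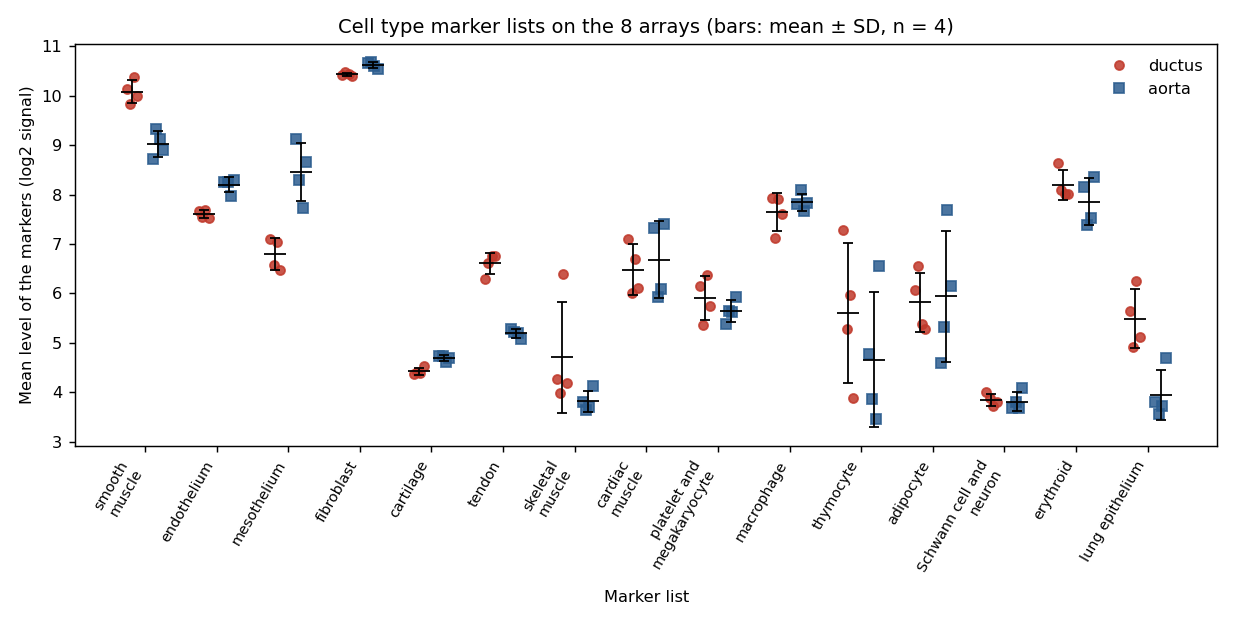
Mean log2 signal of each cell type marker list on the 4 ductus arrays (red circles, left) and the 4 aorta arrays (blue squares, right), with mean ± SD. Without overlap, tendon, smooth muscle and lung epithelium means are higher in the ductus and endothelial, mesothelial, fibroblast and cartilage means lower. A list mean can rest largely on few genes, here Cxcl15 and Scgb1a1 for lung epithelium and Acan and Hapln1 for cartilage. The skeletal muscle mean of ductus replicate 3 (6.39) stands apart.

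Endothelial and mesothelial markers were lower in the ductus. The mean of 12 endothelial markers was 7.54 to 7.68 in the ductus and 7.98 to 8.30 in the aorta (0 higher, 3 lower), and that of 10 mesothelial markers 6.48 to 7.10 in ductus pools and 7.72 to 9.12 in aorta pools (0 higher, 7 lower). Cartilage, in which thrombospondins and CCN proteins are also made, had 0 markers higher and 2 lower of 10 (Acan and Hapln1). The list mean was 4.36 to 4.52 in the ductus and 4.61 to 4.74 in the aorta, but its median log2 difference was -0.005. The cartilage collagen Col2a1 averaged 3.03 in ductus pools and 2.75 in aorta pools. Col9a2, Col9a3, Col11a2, Matn1 and Matn3 averaged 2.38 to 3.35 in either tissue, not far from the first quartiles of the arrays (2.74 to 2.86). Fibroblast markers had 0 called of 9, at 10.40 to 10.49 in the ductus and 10.55 to 10.68 in the aorta. Macrophage, erythroid, adipocyte and nerve lists had 0 called, while 2 of 7 lung epithelium genes were higher in the ductus, Cxcl15 (log2 5.15, adjusted p = 1.15e-05) and Scgb1a1 (log2 3.05, adjusted p = 0.000992). Of the same list, Sftpc, Sftpb, Sftpa1, Nkx2-1 and Epcam were not called (adjusted p of 0.291 to 0.921). Nkx2-1 differed by log2 -0.10 and Epcam by log2 -0.06, while the 3 surfactant genes had positive differences. The mean of the 7 ran from 4.93 to 6.26 in ductus pools and from 3.55 to 4.70 in aorta pools. Cxcl15, at 11.11 in ductus pools and 5.96 in aorta pools, made up much of that gap. The part of these markers in the member differences was not tested, apart from the 3 covariates named with the processing.

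The genes whose profile lay closest to a called member were found by the root mean square difference over the 8 arrays after centring each gene on its mean. For Thbs1 they were Lrrn1 (0.211 log2 units), Rerg (0.222) and Col8a2, a chain of a vascular short-chain collagen (0.254). For Thbs4 they were Mn1 (0.123), Adam23 (0.124) and Phldb2 (0.143). Pwwp3b (0.111), Man2a1 (0.116) and Sh3gl2 (0.124) lay closest to Ccn1, and Slc41a2 (0.281), Stmn3 (0.295) and Clca3a2 (0.306) to Ccn5. All 12 were themselves called higher in the ductus, as genes close to a called member tend to be. Lrrn1 averaged 10.22 ± 0.13 in the ductus and 8.50 ± 0.55 in the aorta. Its wide aorta spread, like that of Thbs1, is favoured by choosing genes for closeness over the same 8 arrays.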

How the data were processed

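RNA of 8 pools was hybridised to Affymetrix mouse arrays, 4 of ductus and 4 of aorta. The deposited log2 values were made by the authors with Partek 6.6 and RMA, per the submitters' processing notes; the sources used here do not give their order or settings. The labels name a Trizol extraction and the design text a Versagene kit. The table held 45101 probe sets, of which 64 controls, 9160 without and 932 with several symbols were left out. Names came from the platform annotation, updated by gene ID (34741 of 34945 matched to the reference table). Array medians were 4.36 to 4.42 and correlations 0.986 to 0.992 within and 0.979 to 0.987 between tissues. The number of arrays limits the precision, and no detection call was used.

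Differences were tested with limma 3.58.1 in R 4.3.3 (lmFit, eBayes, two-sided, no covariate), with Benjamini-Hochberg adjustment over all genes or all probe sets, without a low-value filter. All 10 genes and 19 probe sets were therefore tested; under a mean above log2 6, Thbs4 falls out. SDs are over 4 arrays, and 95% intervals use the moderated error. Every member was named, with up to 4 called genes per list (otherwise the smallest p) and the 3 closest genes per called member; model names were left out. Members and lists were chosen with earlier results of these data known. On simulated arrays with 200 changed genes among 18193, 68% of log2 1 and 95% of log2 2 changes were recovered, with 12 false calls among 175. For 34945 probe sets these were 65%, 95% and 8 among 168. The data themselves gave 702 called genes, and recovery depends on the share changed, so these rates need not hold for this contrast. Alternatives covered scaling, low-value filters, probe set choice, prior, array weights, a replicate block, thresholds, skeletal muscle, thymocyte and adipocyte covariates, and leaving out each array.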

Additional observations from a re-analysis of the deposited data

Results flagged for a closer look

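In 5 of 38 groups of 4 arrays a single array lay far from the others, its gap to the nearest exceeding 0.829 of the group's range; chance flags about 1 in 20 groups. Aorta replicate 4 was low for Ccn1 probe sets 1457823_at, at 6.04 against 7.73 to 7.78 on the other aorta arrays, and 1442340_x_at, at 5.91 against 7.68 to 7.75. These 2 share a transcript record, so they are not separate observations; the 2 other Ccn1 probe sets had no array that far out. The same array was high for Thbs2 probe set 1447862_x_at, at 6.72 against 6.55 to 6.57. Ductus replicate 4 was high for Ccn3 probe set 1426851_a_at, at 10.59 against 10.44 to 10.45. Ductus replicate 3 was high for Ccn5 probe set 1419015_at, at 8.15 against 7.25 to 7.38.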

How the results depend on the processing

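The calls of Thbs1 and Ccn5 were kept under all 22 alternatives, and that of Ccn1 under 21, missing only the added 2-fold limit; Thbs4 kept its call under 16 of 21. Member genes called numbered 2 with the 2-fold limit (4 without it), both higher in the ductus. Choosing probe sets by interquartile range, 1 member gene was lower (Thbs2). Leaving out 1 array gave 3 to 4 called genes, 3 to 4 higher and 0 lower, and 4 to 9 called probe sets, 4 to 8 higher and 0 to 1 lower: without ductus replicate 4, 4 probe sets were called. Probe sets lower numbered 0 with the 2-fold limit, and probe sets higher 5 with the skeletal muscle covariate. Calls over the lists, 15 in all, numbered 24 with the trended prior, 6 with the 2-fold limit, 25 at an adjusted p under 0.10, 9 with the skeletal muscle covariate and 9 to 17 on leaving out 1 array.

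With the replicate block, 5 member probe sets were called, 5 higher and 0 lower, and 6 list genes; all genes called fell to 403 from 702. The labels do not say whether arrays of equal replicate number share a litter. Their deviations from the tissue means correlated at -0.227 to -0.068 over genes. As variation particular to the pools of each tissue can mask a shared litter, these correlations do not decide the pairing.

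Only values not called changed sign. Quantile normalization gave log2 -0.0025 for Thbs2 (1450663_at) and -0.014 for Ccn3 (1426852_x_at), and array weights -0.0028 for Ccn3 among genes and -0.0035 among probe sets. Thbs2 was -0.25 as a mean over probe sets, -0.83 by interquartile range, which picks 1422571_at (adjusted p = 0.027), and -0.012 to 0.090 on leaving out 1 array (negative without aorta replicate 4). Ccn3 was -0.051 to 0.087 on leaving out 1 array (-0.012 without ductus replicate 4). Probe set 1447862_x_at was -0.019 with the thymocyte covariate and -0.020 to 0.084 on leaving out 1 array (negative without ductus replicate 1), and Itgav -0.11 by interquartile range. Apart from the choice of probe set, the cause was not tested.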
